A study of Mus musculus with 8 samples.

Results

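The genes described here are 9 genes of pericellular matrix proteolysis: the plasminogen activators Plau and Plat, the urokinase receptor Plaur, the matrix metalloproteinases Mmp2, Mmp9 and Mmp14, and the tissue inhibitors of metalloproteinases Timp1, Timp2 and Timp3. They were chosen by symbol, and all 9 are among the 42687 genes of the count table. Of these, 7 passed the filter on low counts and were tested with 15197 genes in all. Mmp2 and Mmp9 did not pass it.

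Urokinase (Plau) and tissue plasminogen activator (Plat) are serine proteases that cut plasminogen into plasmin, which degrades fibrin and activates other proteases. Plaur holds urokinase at the cell surface. Matrix metalloproteinases are zinc enzymes that cleave collagens and other matrix proteins, and Mmp14 is a membrane-anchored one that activates the proenzyme of Mmp2, the gelatinase A. Mmp9 is gelatinase B. The TIMP proteins block the active site of these enzymes, and Timp2 also bridges Mmp14 and pro-Mmp2 during activation. Timp3 is bound to the matrix and also inhibits the sheddases Adam17 and Adam10. In pancreatic tumours these genes are known for their part in remodelling the dense stroma, with many of the proteases made by stromal cells.

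RNA was sequenced from 1 clonal mouse pancreatic cancer cell line of low immunogenicity in culture, so the groups compare treatments of a single clone with no host cells. The mice of origin carried a KrasLSL-G12D/+ allele, a Trp53LSL-R172H/+ allele, the Pdx1-Cre driver, which acts in the pancreatic epithelium, and a Rosa26YFP/YFP reporter. All groups share this background, although the genotype label reads WT for every sample. The groups were DNase-treated ATEV (15 µg/mL of extracellular vesicles, EVs, after Baseline-ZERO DNase), ATEV (15 µg/mL, untreated EVs), NTEV (30 µg/mL of EVs from non-activated T cells) and PBS. ATEVs are taken here, by contrast with the name NTEV, to come from activated T cells. Both EV amounts are read here as matching 5 µg/mL of DNA carried by the EVs, and the exposure was repeated 8 times. Each group had 2 libraries. Nothing in the labels says that these were separate cultures. The p-values therefore reflect the spread between libraries alone, and that spread may be technical.

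Total gene counts were between 34385326 and 52451398 per library. Epithelial markers were abundant in every library, as the cell type label says, with a summed level of 8369 to 11187 counts-per-million (CPM) over 9 genes, led by Krt8, Krt18 and Krt19. Epcam (6.44 to 29.9 CPM) and Cldn4 (0.02 to 2.04 CPM) were low. T cell markers summed to 6.27 to 11.8 CPM over 12 genes, nearly all of it from Trac (4.11 to 7.17 CPM) and Lck (1.99 to 6.35 CPM), while Cd2, Cd5 and Cd8a were at 0 in all 8 libraries. Fibroblast and endothelial markers summed to 3.15 to 11.2 CPM over 12 genes, with Dcn and Lum at 0 in all 8. Across 12732 genes, log2 fold changes against PBS were higher for genes of higher GC content (Spearman rho 0.307 for DNase-treated ATEV, 0.378 for ATEV, 0.387 for NTEV). This relation was near absent between the EV groups, with rho between -0.07 and -0.04.

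Plau and Timp3 were the members whose change passed the test, each in 1 comparison with PBS and each downwards. Plau fell to 9.10 ± 1.77 CPM with ATEVs, against 18.9 ± 3.42 CPM with PBS (SD, n = 2 each). Timp3 fell to 125 ± 7.89 CPM with DNase-treated ATEVs, against 254 ± 8.21 CPM with PBS (SD, n = 2 each). With untreated ATEVs Timp3 averaged 149 ± 33.0 CPM, which did not pass the test against PBS, and with NTEVs 299.9 ± 42.7 CPM. Plat, Plaur, Mmp14, Timp1 and Timp2 did not pass it in any of the 6 comparisons made.

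**Figure D1:**
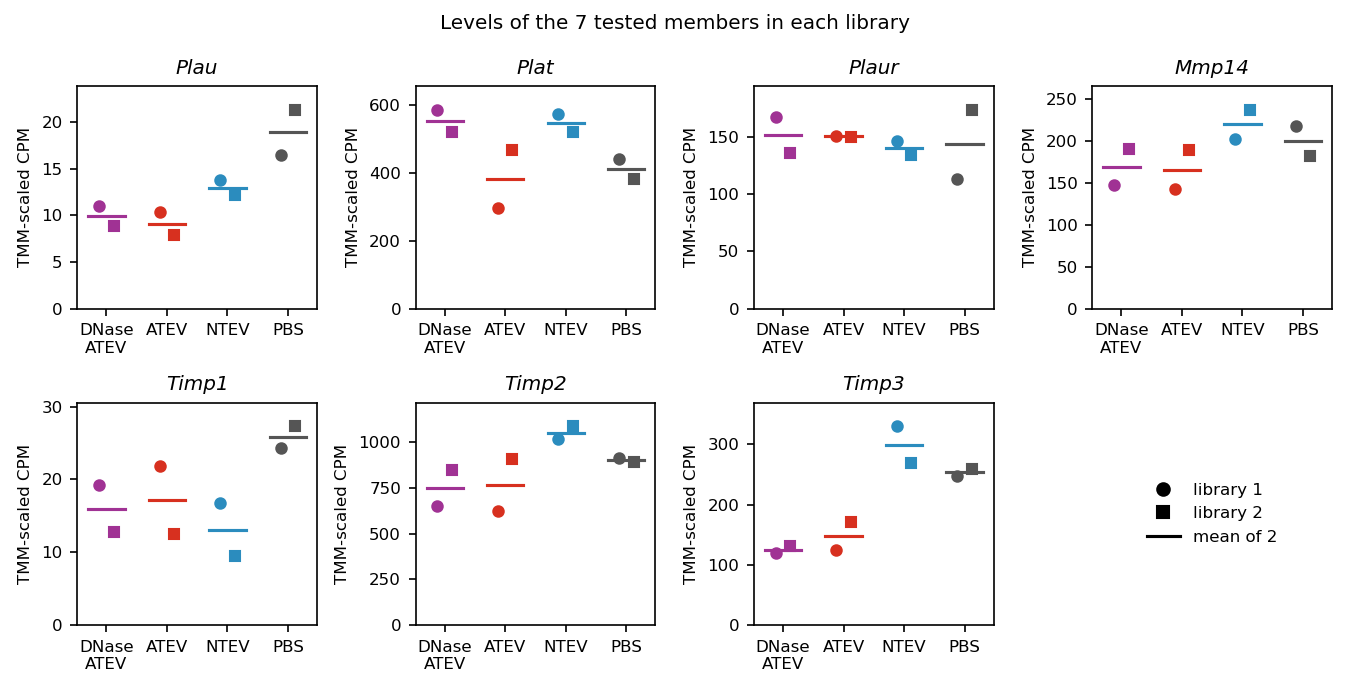
TMM-scaled CPM (y axis, from 0) of the 7 tested members in each library, by treatment group. Circles are library 1, squares library 2 and lines the mean of 2. For Timp3 the 4 libraries of both ATEV groups lie at 119 to 172 CPM, below the 248 to 330.1 CPM of the NTEV and PBS libraries.

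Plau had 11.1 and 8.89 CPM with DNase-treated ATEVs, 10.3 and 7.85 CPM with ATEVs, 13.8 and 12.2 CPM with NTEVs, and 16.5 and 21.3 CPM with PBS. All 6 EV libraries lay below both PBS libraries, and the 4 libraries of the ATEV groups also lay below both NTEV libraries. Of all genes tested, 15.3% had all 6 EV libraries below PBS and 2.88% had the 4 ATEV libraries below the other 4. The log2 fold change of Plau was -1.05 for ATEV against PBS (SE 0.23, 95% interval -1.60 to -0.51, edgeR adjusted p = 0.0476). For DNase-treated ATEV against PBS it was -0.92 (edgeR adjusted p = 0.0772), and for NTEV against PBS -0.54 (edgeR adjusted p = 0.258). These comparisons share the PBS libraries.

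The Plau call lies close to the threshold and was lost when any 1 of the 8 libraries was left out, with edgeR adjusted p from 0.0695 to 0.260 and a log2 fold change from -1.23 to -0.86. It was also lost when only protein-coding genes were tested (edgeR adjusted p = 0.0620), when only the PBS and ATEV libraries were fitted (0.104) and after a correction for GC content (0.0558). DESeq2 called Plau for DNase-treated ATEV against PBS as well (adjusted p = 0.00661). The test was run with 4 residual degrees of freedom, and an exact two-sided permutation test of 2 libraries against 2 cannot go below 0.333. In bulk RNA, fewer cells that make a transcript and less transcript per cell cannot be told apart.

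Plat was far more abundant than Plau. It had 585 and 519.7 CPM with DNase-treated ATEVs, 297 and 466 CPM with ATEVs, 574 and 520.3 CPM with NTEVs, and 442 and 382 CPM with PBS. ATEV library 1 was the lowest of the 8 and ATEV library 2 lay above both PBS libraries, so these groups overlapped. DNase-treated ATEV and NTEV libraries lay above PBS and ATEV libraries, at 519.7 to 585 CPM against 297 to 466 CPM. The log2 fold change was 0.42 for DNase-treated ATEV against PBS (edgeR adjusted p = 0.273) and 0.41 for NTEV against PBS (edgeR adjusted p = 0.330). For DNase-treated ATEV against ATEV it was 0.53, with a 95% interval of 0.02 to 1.05 and an edgeR adjusted p of 0.422.

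Set per length within each library, Plat stood above Plau by a factor that varied between libraries, also within the ATEV group. This RPKM ratio was 20.1 and 22.2 in DNase-treated ATEV libraries, 10.9 and 22.5 in ATEV libraries, 15.8 and 16.2 in NTEV libraries, and 10.2 and 6.79 in PBS libraries. All 6 EV libraries had a higher ratio than both PBS libraries, with ATEV library 1 the closest. The ratio itself was not tested.

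The urokinase receptor gene Plaur had similar group means, with no call in any comparison. It had 168 and 136 CPM with DNase-treated ATEVs, 151 and 150.2 CPM with ATEVs, 147 and 134 CPM with NTEVs, and 114 and 174 CPM with PBS. The PBS libraries enclosed all 6 others. The log2 fold changes against PBS were 0.08 for DNase-treated ATEV, 0.07 for ATEV and -0.03 for NTEV. The 95% interval for ATEV ran from -0.43 to 0.56, which leaves room for a change of that size in either direction.

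**Figure D2:**
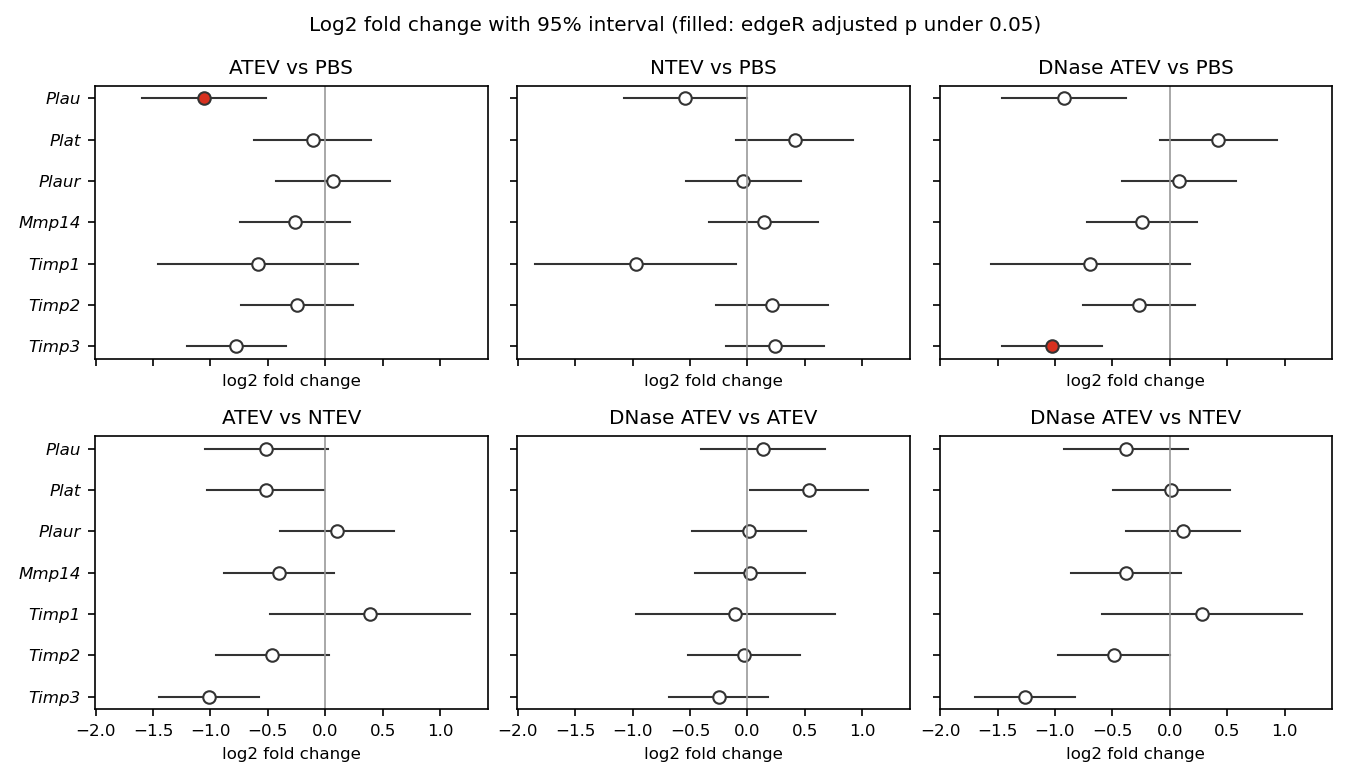
Log2 fold change (x axis) with its 95% interval for the 7 tested members in each of 6 comparisons. Filled points passed an edgeR adjusted p of 0.05: Plau at -1.05 for ATEV against PBS and Timp3 at -1.02 for DNase-treated ATEV against PBS.

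Of the metalloproteinases, Mmp14 was well expressed and the gelatinases were near absent. Mmp2 had 3 counts over all 8 libraries, 1 each in a DNase-treated ATEV, an NTEV and a PBS library. Mmp9 had 7 counts, and no library had more than 3. A count of 0 allows up to 3 counts, which is 0.0572 to 0.0872 CPM depending on the library, so no difference in Mmp2 or Mmp9 was detectable at this depth and no fold is given.

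Mmp14 had 147 and 190.1 CPM with DNase-treated ATEVs, 142 and 189.8 CPM with ATEVs, 202 and 237 CPM with NTEVs, and 218 and 182 CPM with PBS. Library 1 was the lower of both ATEV groups and of NTEV, and the ATEV groups overlapped with PBS but not with NTEV. Against PBS the log2 fold change was -0.24 for DNase-treated ATEV, -0.27 for ATEV (edgeR adjusted p = 0.486) and 0.14 for NTEV (edgeR adjusted p = 0.695). ATEV against NTEV gave -0.40 (edgeR adjusted p = 0.747).

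Promoter letters of the inhibitors and of Mmp14 are shown because Timp2, Timp3 and Mmp14 have related patterns over the libraries and Timp1 does not. RefSeq tables (build GRCm38.p6) matched 5 of the 9 members, Plaur, Mmp14, Timp1, Timp2 and Timp3. The stretches start 250 bases before the annotated start, read 5′ to 3′ on the gene's strand, and stop short of any annotated transcript of that gene. Transcripts of other genes were not checked. For Mmp14, the bases just after the start were not found in the gene's annotated transcripts. Capitals mark matches, on either strand, to the motifs searched. They lie at chr10:86300162-86300371 (Timp3, plus strand), chr11:118355507-118355661 (Timp2, minus strand), chrX:20869916-20870165 (Timp1, plus strand) and chr14:54431348-54431597 (Mmp14, plus strand).
Timp3: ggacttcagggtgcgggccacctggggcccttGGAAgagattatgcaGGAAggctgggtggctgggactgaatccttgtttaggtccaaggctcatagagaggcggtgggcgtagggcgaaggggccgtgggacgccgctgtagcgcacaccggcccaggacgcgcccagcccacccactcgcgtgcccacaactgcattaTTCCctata
Timp2: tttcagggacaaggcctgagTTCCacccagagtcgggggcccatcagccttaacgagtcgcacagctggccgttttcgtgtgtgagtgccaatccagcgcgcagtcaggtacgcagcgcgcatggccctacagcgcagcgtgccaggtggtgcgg
Timp1: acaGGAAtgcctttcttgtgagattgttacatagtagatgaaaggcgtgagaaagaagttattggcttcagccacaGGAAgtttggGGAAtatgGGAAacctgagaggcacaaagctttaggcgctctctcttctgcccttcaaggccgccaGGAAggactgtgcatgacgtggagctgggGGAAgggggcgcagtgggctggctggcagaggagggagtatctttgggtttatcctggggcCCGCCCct
Mmp14: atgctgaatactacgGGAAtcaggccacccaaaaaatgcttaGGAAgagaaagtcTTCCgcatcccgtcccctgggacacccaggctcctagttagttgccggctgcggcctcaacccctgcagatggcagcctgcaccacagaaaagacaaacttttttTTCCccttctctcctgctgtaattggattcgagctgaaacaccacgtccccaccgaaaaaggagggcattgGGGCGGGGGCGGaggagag

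The motifs searched in the 250 bases were TGANTCA (AP-1), GGGCGG (Sp1 box), GGAA (Ets core), TATAAA (box of core promoters), TTCNNNGAA (STAT) and the ISRE motif of interferon response. The Sp1 box was present in all 5 promoters and in 32.7% of 32851 mouse promoters of the same length. In Timp1 it begins at base -8 and in Mmp14 at -19 and -13, while in Timp3 (-15) and Timp2 (-37) it falls beyond the stretch printed. The 4-letter Ets core, held by 93.4% of all promoters, occurred 3 times in Timp3, 2 times in Timp2, 6 times in Timp1 and 4 times in Mmp14. In Timp2 the match at -96 begins on the last base printed, so only the match at -230 is marked. AP-1 letters, in 6.75% of promoters, were found in Plaur alone of the 5, and no TATA box (12.4%), STAT (7.02%) or ISRE (2.98%) letters were found in any of them. These matches describe the letters of the windows.

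Timp3 had 119 and 130.5 CPM with DNase-treated ATEVs, 125 and 172 CPM with ATEVs, 330.1 and 269.7 CPM with NTEVs, and 248 and 259.7 CPM with PBS. The 4 libraries of both ATEV groups lay below the 4 of NTEV and PBS, a pattern that Timp3 shares with Plau and with 2.88% of all genes tested. NTEV libraries lay above PBS. The log2 fold change was -1.02 for DNase-treated ATEV against PBS (SE 0.18, 95% interval -1.46 to -0.59, edgeR adjusted p = 0.0381), a level 0.492 times that with PBS. For ATEV against PBS it was -0.77 (SE 0.18, 95% interval -1.20 to -0.34, edgeR adjusted p = 0.0589).

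Against NTEVs, Timp3 had a log2 fold change of -1.26 with DNase-treated ATEVs (95% interval -1.70 to -0.83, edgeR adjusted p = 0.131) and of -1.01 with untreated ATEVs (95% interval -1.45 to -0.58, edgeR adjusted p = 0.0607). NTEV against PBS gave 0.24 (95% interval -0.19 to 0.67, edgeR adjusted p = 0.462). DNase-treated against untreated ATEVs gave -0.25 (95% interval -0.68 to 0.18, edgeR adjusted p = 0.6996), and both intervals leave room for a change in either direction.

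The Timp3 call for DNase-treated ATEV against PBS was kept without either ATEV library. It was lost without PBS library 1 (edgeR adjusted p = 0.181), PBS library 2 (0.223), NTEV library 1 (0.0609), NTEV library 2 (0.0547), DNase-treated ATEV library 1 (0.126) or DNase-treated ATEV library 2 (0.175), while its log2 fold change stayed between -1.08 and -0.92. It was also lost with protein-coding genes alone (0.0763) and after GC correction (0.0540). Without ATEV library 2, the higher of that group, ATEV against NTEV passed, with a log2 fold change of -1.26 and an edgeR adjusted p of 0.0389. DESeq2 called Timp3 for ATEV against PBS (adjusted p = 0.0124), ATEV against NTEV (0.000483) and DNase-treated ATEV against NTEV (6.95e-06).

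The summed level of myeloid markers was higher in the ATEV groups, and nearly all of it came from the single gene Cd14. Over 12 genes they summed to 275 and 202 CPM with DNase-treated ATEVs, 156 and 169 CPM with ATEVs, 108 and 125 CPM with NTEVs, and 103 and 69.7 CPM with PBS. Cd14, a coreceptor for bacterial lipopolysaccharide, alone had 270 and 195 CPM with DNase-treated ATEVs and 152 and 165 CPM with ATEVs. It had 105 and 121 CPM with NTEVs, and 99.7 and 67.1 CPM with PBS. Its log2 fold change for DNase-treated ATEV against PBS was 1.48 (edgeR adjusted p = 0.0284). Of the 12 genes 6 were tested, and all 6 had a positive log2 fold change for DNase-treated ATEV against PBS, 5 of 6 for ATEV against PBS and 3 of 6 for NTEV against PBS. Among those of few counts, S100a9, a calprotectin subunit gene, had 10 and 21 counts with DNase-treated ATEVs and 4 and 2 counts with ATEVs, against 0 in all 4 NTEV and PBS libraries. S100a9 and S100a8 reached the level of the low-count filter only in libraries of the ATEV groups. Their positive signs therefore do not count as support for a direction. Lyz2, which was not tested, had 8 and 3 counts with DNase-treated ATEVs and 2 and 1 with ATEVs. It had 8 and 8 counts with NTEVs and 2 and 5 with PBS. Adgre1 and Mpo were at 0 in all 8 libraries, and Itgam had at most 2 counts in any. The part of the myeloid genes in the Timp3 result was not tested. The gene Syn3 overlaps Timp3 on the opposite strand, and it had 0.729 to 1.84 CPM.

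Timp2 was the most abundant member in CPM and per length in all 4 groups. It had 652 and 848 CPM with DNase-treated ATEVs, 623 and 905 CPM with ATEVs, 1015 and 1086 CPM with NTEVs, and 915 and 894 CPM with PBS. NTEV libraries were the highest, DNase-treated ATEV libraries lay below PBS, and the ATEV libraries lay on either side of the lower PBS library. The log2 fold change against PBS was -0.27 for DNase-treated ATEV (edgeR adjusted p = 0.437), -0.24 for ATEV (edgeR adjusted p = 0.532) and 0.22 for NTEV (edgeR adjusted p = 0.553). For DNase-treated ATEV against NTEV it was -0.49 at an unadjusted edgeR p of 0.0508. The small gene Cep295nl, on the same strand inside Timp2, had 2.53 to 4.73 CPM.

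Timp1 was low in CPM, with an exon length of 888 bases. Per length it had 10.6 to 30.7 RPKM over the 8 libraries. It had 19.3 and 12.7 CPM with DNase-treated ATEVs, 21.8 and 12.6 CPM with ATEVs, 16.8 and 9.43 CPM with NTEVs, and 24.3 and 27.3 CPM with PBS. All 6 EV libraries lay below both PBS libraries, as for 15.3% of genes, and library 1 was above library 2 in each EV group. The log2 fold change against PBS was -0.69 for DNase-treated ATEV (edgeR adjusted p = 0.290), -0.59 for ATEV (edgeR adjusted p = 0.398) and -0.97 for NTEV (unadjusted p = 0.0336, edgeR adjusted p = 0.229). Timp1 lies within Syn1, which is on the opposite strand and had 11.4 to 19.0 CPM. The strand setting of the counting is not given, so reads of Timp1 and Syn1 may have been shared.

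Counted over the 7 tested members, 1 fell with ATEVs against PBS where 1.66% of all genes tested fell, and 1 fell with DNase-treated ATEVs against PBS where 0.855% did. In either direction the shares of all genes were 5.19% and 3.01%. With 7 members tested, a count of 1 says nothing about the list as a whole. At an unadjusted edgeR p under 0.05 there were 2 members for ATEV against PBS and 2 for DNase-treated ATEV against PBS, all lower, where 21.9% and 24.7% of all genes had such a p. NTEV against PBS called 0 members in edgeR, where 1.11% of all genes were called. It had 2 lower members at an unadjusted p under 0.05 (19.1% of all genes) and 0 called by DESeq2, beside 983 of all genes. DESeq2 called 2 members for ATEV against PBS, beside 1637 of all genes. For DNase-treated ATEV against PBS it called 2, beside 1764.

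ATEV against NTEV called 0 members in edgeR, beside 1.19% of all genes. It had 2 lower members at an unadjusted p under 0.05 (8.23% of all genes) and 1 called by DESeq2, Timp3, beside 477 of all genes. DNase-treated ATEV against ATEV called 0 members, beside 0.665% of all genes. Here Plat alone had an unadjusted p under 0.05 (11.3% of all genes) and DESeq2 called 0, beside 420 of all genes. DNase-treated ATEV against NTEV called 0 members, beside 0.0526% of all genes. Here Timp3 alone had an unadjusted p under 0.05 (10.0% of all genes), and DESeq2 called it, beside 198 of all genes. Groups that did not overlap were common: 5 of 7 members for DNase-treated ATEV against PBS (60.6% of all genes), 3 of 7 for ATEV against PBS (52.5%) and 5 of 7 for NTEV against PBS (59.5%). The median log2 fold change of the members was -0.27 for both ATEV groups against PBS and 0.14 for NTEV against PBS, beside medians of 0.00, -0.02 and 0.00 over all genes in the order DNase-treated ATEV, ATEV and NTEV.

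Levels of different genes were compared per length, as RPKM, the CPM divided by the exon length in kilobases. This length joins all annotated exons of a gene, which gave 8144 bases for Timp3 and 888 for Timp1. Ranks between genes, and the size of their shares and ratios, depend on this length. With DNase-treated ATEVs the order was Timp2 (192 RPKM), Plat (88.5), Plaur (58.0), Mmp14 (28.3), Timp1 (18.0), Timp3 (15.3) and Plau (4.21), and the libraries of neighbours overlapped for Timp1 and Timp3. With ATEVs it was Timp2 (196 RPKM), Plat (61.1), Plaur (57.6), Mmp14 (27.9), Timp1 (19.4), Timp3 (18.2) and Plau (3.84). Here Plat overlapped Plaur, Mmp14 overlapped Timp1, and Timp1 overlapped Timp3.

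With NTEVs the order was Timp2 (269.7 RPKM), Plat (87.7), Plaur (53.7), Mmp14 (36.9), Timp3 (36.8), Timp1 (14.8) and Plau (5.48), and Mmp14 and Timp3 overlapped. With PBS it was Timp2 (232 RPKM), Plat (66.0), Plaur (55.0), Mmp14 (33.5), Timp3 (31.2), Timp1 (29.1) and Plau (7.99), with overlap between Plat and Plaur, Mmp14 and Timp3, and Timp3 and Timp1. The order was thus the same in all 4 groups apart from the neighbours Timp3 and Timp1. Timp3 stood above Timp1 with NTEVs and PBS and below it, within the spread, in both ATEV groups. In library 2 of both ATEV groups Timp3 was still above Timp1.

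**Figure D3:**
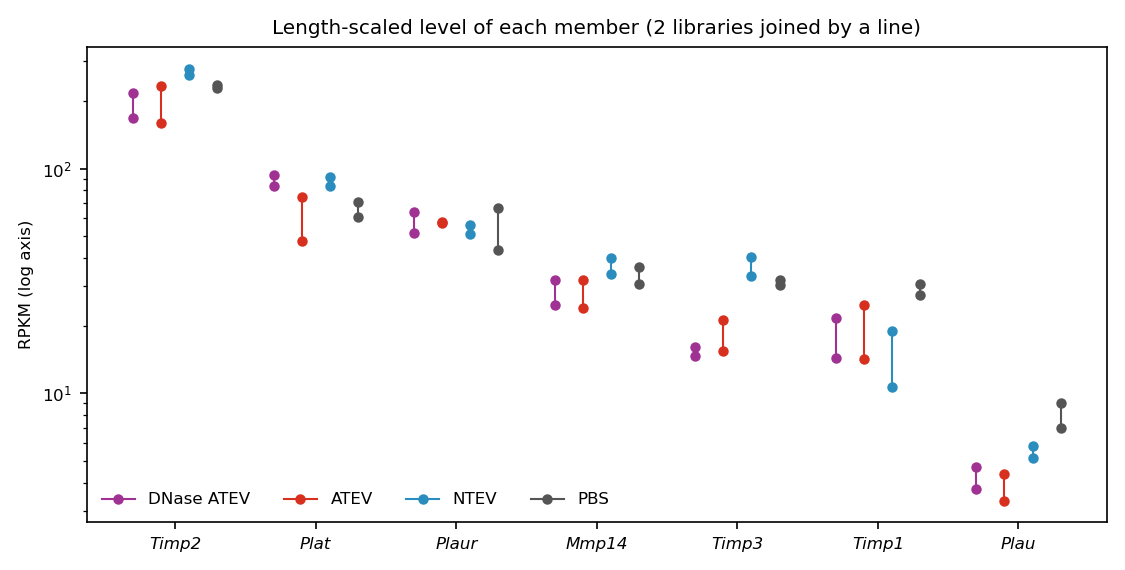
RPKM (log y axis) of each tested member, with the 2 libraries of a group joined by a line. Timp2 is highest and Plau lowest in every group. The neighbours Timp3 and Timp1 exchange places in the order of means, with overlapping libraries in both ATEV groups and with PBS.

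The ratio of Timp2 to its partner Mmp14 varied less than either gene. Such likeness was not particular to this pair. The Pearson correlation of log2 CPM was 0.952 between them, while 62 genes were over 0.9 with Mmp14 and 73 with Timp2. The RPKM ratio of Timp2 to Mmp14 was 6.77 and 6.82 in DNase-treated ATEV libraries, 6.69 and 7.30 in ATEV libraries, 7.67 and 7.00 in NTEV libraries, and 6.43 and 7.53 in PBS libraries. Across the 8 libraries it varied 1.19-fold, while Timp2 varied 1.74-fold and Mmp14 1.67-fold in CPM. All groups overlapped with PBS in this ratio.

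The ratio of Timp3 to Mmp14 separated the ATEV groups. It was 0.593 and 0.502 in DNase-treated ATEV libraries, 0.643 and 0.663 in ATEV libraries, 1.19 and 0.831 in NTEV libraries, and 0.834 and 1.05 in PBS libraries. The 4 ATEV libraries lay below the 4 others. Timp3 made up 7.19% and 6.46% of the summed RPKM of the 3 TIMP genes in DNase-treated ATEV libraries, 7.69% and 7.89% in ATEV libraries, 12.7% and 10.3% in NTEV libraries, and 10.4% and 10.9% in PBS libraries. Timp2 made up 78.6% to 87.8% of that sum in every library. These ratios are descriptions and were not tested.

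**Figure D4:**
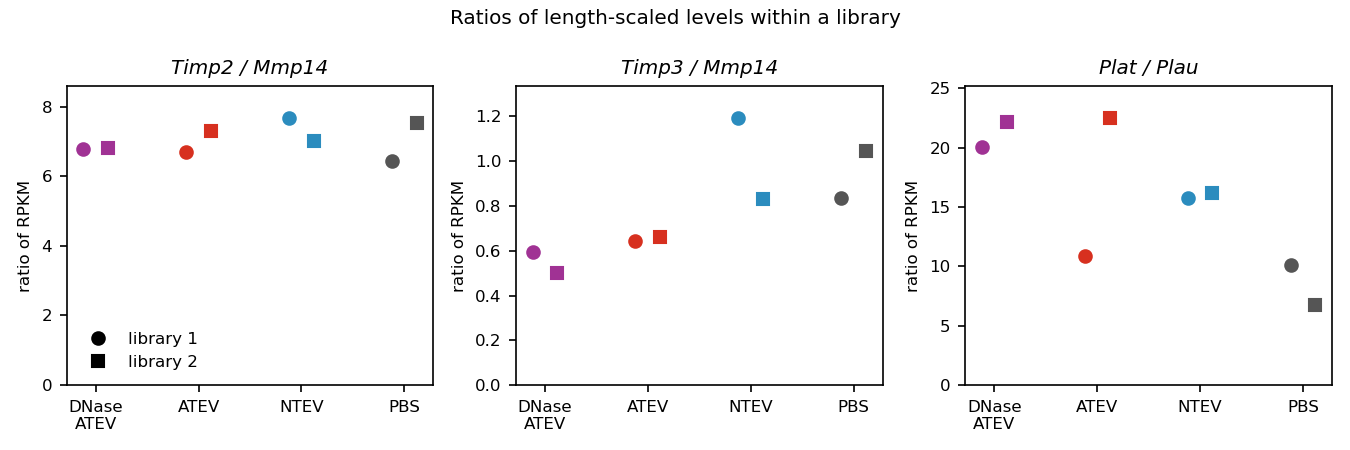
Within-library ratios of RPKM (y axes from 0) for Timp2 to Mmp14, Timp3 to Mmp14 and Plat to Plau, with circles for library 1 and squares for library 2. Timp2 to Mmp14 stays between 6.43 and 7.67 in all libraries, Timp3 to Mmp14 is lower in both ATEV groups, and Plat to Plau is lowest with PBS.

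The list counts that follow stand beside these shares of all 15197 genes tested: an unadjusted p under 0.05 was found for 24.7% with DNase-treated ATEVs, 21.9% with ATEVs and 19.1% with NTEVs against PBS, and DESeq2 called 1764, 1637 and 983 genes in that order. Further genes of the plasminogen system were read from a list of 22, of which 17 were tested. In ATEV against PBS 0 rose and 1 fell, where edgeR called 5.19% of all genes in either direction. At an unadjusted edgeR p under 0.05, 2 were higher and 3 lower, and DESeq2 called 1. In DNase-treated ATEV and NTEV against PBS none was called by edgeR, beside 3.01% and 1.11% of all genes. There 2 genes had an unadjusted p under 0.05 with DNase-treated ATEVs, both lower, and 3 with NTEVs, of which 2 were lower. DESeq2 called 2 in each. The one called was Serpinb5 (maspin), a serpin of epithelial cells that is known as a tumour suppressor and is no classical protease inhibitor. Serpinb5 had 15.7 and 13.5 CPM with DNase-treated ATEVs, 6.05 and 5.18 CPM with ATEVs, 16.1 and 12.4 CPM with NTEVs, and 28.4 and 27.6 CPM with PBS. ATEV libraries were the lowest and PBS the highest, with DNase-treated ATEV and NTEV libraries overlapping between them.

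The log2 fold change of Serpinb5 was -2.32 for ATEV against PBS (edgeR adjusted p = 0.00197), and this call held under all alternatives run, with the highest adjusted p at 0.0313. It was -1.34 for ATEV against NTEV (edgeR adjusted p = 0.0255) and 1.38 for DNase-treated ATEV against ATEV (edgeR adjusted p = 0.0332). Each of these last calls was lost in 6 of the 8 fits without 1 library, with adjusted p up to 0.163 and 0.189, and when only the groups compared were fitted (0.180 and 0.199).

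Of 20 other matrix metalloproteinases 9 were tested and none was called by edgeR against PBS. At an unadjusted p under 0.05, 2 were higher with DNase-treated ATEVs, 1 with ATEVs and 1 with NTEVs, and DESeq2 called 2, 1 and 0 in that order. Mmp19 had a log2 fold change of 3.41 for ATEV against PBS (edgeR adjusted p = 0.104), and Mmp23 of 2.17 for DNase-treated ATEV against PBS (edgeR adjusted p = 0.0892). The list medians of 0.76, 0.52 and 0.82 for DNase-treated ATEV, ATEV and NTEV against PBS stood beside medians of 0.00, -0.02 and 0.00 over all genes.

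Among 15 regulators of metalloproteinases 8 were tested, and Lcn2 was called higher in both ATEV groups. Lcn2 reached the level of the low-count filter only in libraries of the ATEV groups, so it could enter the test only as higher there. Its calls therefore do not count as support for a direction. Lcn2 encodes lipocalin 2, a siderophore-binding protein. Lcn2 had 61.7 and 40.3 CPM with DNase-treated ATEVs and 2.64 and 8.49 CPM with ATEVs, against 0.04 and 0.02 CPM with NTEVs and 0.06 and 0 CPM with PBS. The 4 ATEV libraries lay above all others, and the DNase-treated above the untreated ones, with a log2 fold change of 3.20 between them (edgeR adjusted p = 0.0797). The ratio to PBS, which had 3 counts, was 1440 with DNase-treated ATEVs (95% counting interval 492 to 6983) and 156.9 with ATEVs (53.4 to 763), at edgeR adjusted p of 0.00475 and 0.00706. Both calls were lost without PBS library 1 (0.0742 and 0.0718) or PBS library 2 (0.0736 and 0.0781). Against NTEVs, Lcn2 was called with DNase-treated ATEVs (edgeR adjusted p = 0.0199) and with ATEVs (edgeR adjusted p = 0.0126). The first of these calls was kept without either ATEV library and lost without any 1 of the 6 others, with adjusted p from 0.0617 to 0.306. The second was lost without NTEV library 1 (0.148), without NTEV library 2 (0.109) and when only the groups compared were fitted (0.0927). NTEV against PBS called 0 of the 8 in edgeR and in DESeq2, while 3 had an unadjusted p under 0.05, 2 of them higher.

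Of 19 ADAM and ADAMTS proteases 17 were tested and none was called by edgeR against PBS. The numbers with an unadjusted p under 0.05 were 5 higher and 2 lower with DNase-treated ATEVs, 3 higher and 1 lower with ATEVs, and 2 higher with NTEVs, and DESeq2 called 3, 3 and 0. Adam10, a sheddase that Timp3 inhibits, had a log2 fold change of -0.61 for DNase-treated ATEV against PBS (edgeR adjusted p = 0.0505), and Adamts7 of 2.23 (edgeR adjusted p = 0.0743).

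Of 16 membrane serine proteases and inhibitors 11 were tested, and St14 and Klk10 were called. St14, the gene of matriptase, which can activate pro-urokinase, had 0.36 and 0.40 CPM with DNase-treated ATEVs, 0.07 and 0.32 CPM with ATEVs, 0.53 and 0.80 CPM with NTEVs, and 1.26 and 2.31 CPM with PBS. All 6 EV libraries lay below PBS at these low levels. St14 fell by 3.17 on the log2 scale for ATEV against PBS (edgeR adjusted p = 0.0427), and the call was lost in 7 of 8 fits without 1 library, with adjusted p up to 0.222. Klk10, a kallikrein-related peptidase gene, had 1 count with DNase-treated ATEVs against 38 with PBS, a ratio of 36.7 downwards (95% counting interval 6.20 to 1487, edgeR adjusted p = 0.0451) that was lost as a call in all 8 such fits, up to 0.223. Klk10 had 16 counts with NTEVs and 10 with ATEVs, so it may have passed the low-count filter through PBS alone. Its fall would then be no support for a direction. NTEV against PBS called 0 of these 11 in edgeR and in DESeq2, while 4 had an unadjusted p under 0.05, 3 of them higher.

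Of 15 cathepsins and cystatins 13 were tested, and Cstb was called. Cstb, encoding cystatin B, an inhibitor of lysosomal cathepsins, had 82.6 and 84.0 CPM with DNase-treated ATEVs, 78.0 and 82.0 CPM with ATEVs, 93.2 and 99.7 CPM with NTEVs, and 110.0 and 132 CPM with PBS. All 6 EV libraries lay below PBS. Cstb fell by 0.60 on the log2 scale for ATEV against PBS (edgeR adjusted p = 0.0491), a call lost in all 8 fits without 1 library, up to 0.271. In DNase-treated ATEV and NTEV against PBS edgeR called 0 of the 13 and DESeq2 1 each, while 3 had an unadjusted p under 0.05 with DNase-treated ATEVs, 2 of them lower, and 2 with NTEVs, both lower.

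Of 6 lysyl oxidases and heparanase 4 were tested, and edgeR called 0 against PBS. With ATEVs 2 genes had an unadjusted p under 0.05, both higher, and DESeq2 called 1, while with DNase-treated ATEVs and NTEVs both counts were 0. Hpse, the heparan sulphate endoglycosidase, had a log2 fold change of 1.04 for ATEV against PBS (edgeR adjusted p = 0.106), and Loxl2, a collagen crosslinking enzyme, of 1.36 (edgeR adjusted p = 0.212).

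**Figure D5:**
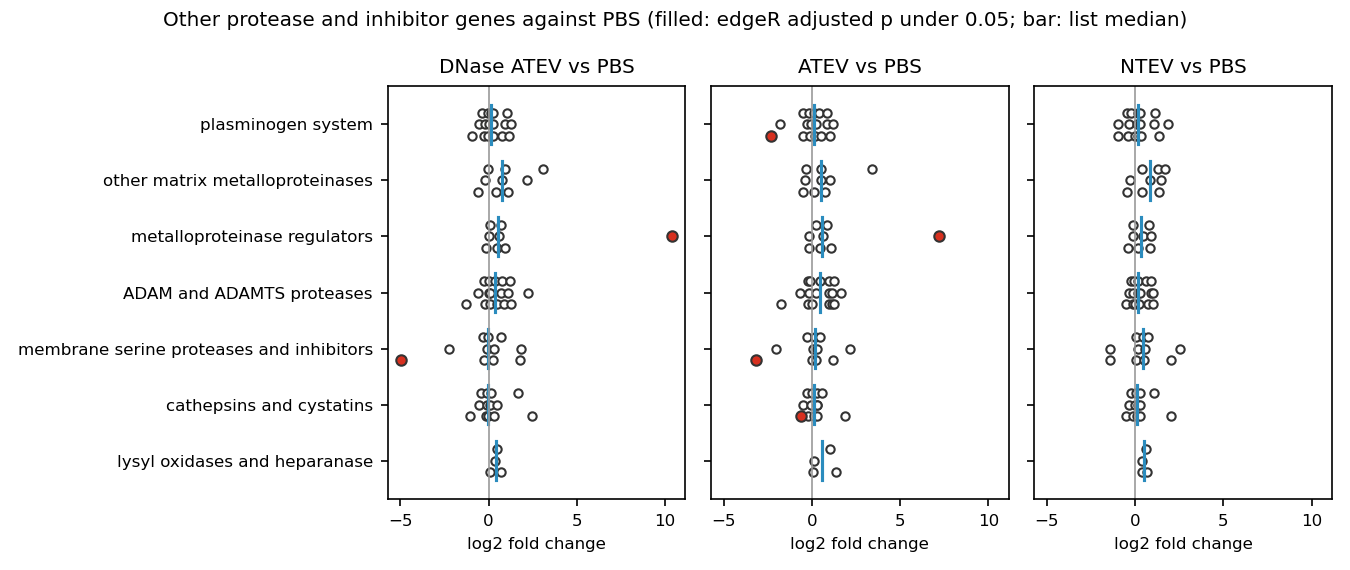
Log2 fold change against PBS (x axis) of every tested gene of 7 lists, for DNase-treated ATEV, ATEV and NTEV. Filled points passed an edgeR adjusted p of 0.05 and blue bars are list medians. Lcn2 stands at the far right of both ATEV panels, and the NTEV panel has no filled point.

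The genes whose pattern over the 8 libraries was most like that of each member were taken by the Pearson correlation of log2 CPM among 10575 protein-coding genes. They are a description, since libraries of a group share their treatment. For Timp3 these were Ncoa7 (0.974), Palld (0.973) and Uhmk1 (0.973), with 53 genes over 0.9. Mef2a was among the 3 nearest to both Timp2 (0.972) and Mmp14 (0.965), which had 73 and 62 genes over 0.9. For Plau they were Galnt7 (0.980), Krt14 (0.975) and Tmem64 (0.972), with 146 genes over 0.9. Timp1 had 1052 genes over 0.9, led by Exosc9 (0.994), whereas Plaur had 2 (Dffb, 0.935) and Plat 7 (St3gal3, 0.945).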

How the data were processed

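Per the labels' protocols, column-purified total RNA gave 8 stranded mRNA libraries, 2 per group. Tools named in the submitters' processing notes, without roles, are Cufflinks 2.1.1, TopHat, TopHat2 2.0.11 and bcl2fastq 2.19, and the build is mm9. Counter, strand setting and gene annotation: not given in the sources used here. Raw counts per gene were deposited by the authors as whole numbers for 42687 Ensembl identifiers. GENCODE M21 gave names for 42250 of them, exon lengths for RPKM, and the overlaps and strands of genes. None of its coordinates is printed.

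In R 4.3.3, edgeR 4.0.16 kept 15197 genes by its filter by group, scaled by TMM, and fitted a quasi-likelihood model with 1 mean per group over all 8 libraries (4 residual degrees of freedom, common biological coefficient of variation 0.226). P-values are two-sided, Benjamini-Hochberg adjusted over all genes tested in each comparison. The threshold was 0.05. CPM are TMM-scaled. Intervals and floors of counts cover counting error only. On simulated data for ATEV against PBS (15197 genes, 200 changed) this fit recovered 36% at a 2-fold and 95% at a 4-fold change, and 9.03% of its calls were unchanged genes. These data were drawn once from the spread estimated by edgeR, with no GC trend and no low-level genes among the changed. The rates therefore need not hold for the real libraries.

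Replicates differed beyond sampling noise (chi-square per gene 39.3 to 145) and were counted separately. Replicate numbers were not used as pairs. Alternatives were RLE scaling, no filter, protein-coding genes only, only the groups compared, a replicate block, GC correction, both together, DESeq2 1.42.0, and leaving out each library. Named were all 9 members, the called genes of each wider list (up to 4, or the 2 of smallest p), and the 3 genes most like each member among those with a mean log2 CPM of at least 1 (prior count 2). The members and lists were chosen with earlier results of these data known.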

Additional observations from a re-analysis of the deposited data

How the results depend on the processing

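Over 672 member values under alternatives, 640 stayed on their side of the threshold, 20 lost the call, 12 gained it and 0 called values reversed. Among these 640, the sign of a value that was not called turned in 34. The 672 values cover 42 results, of which Plau for ATEV against PBS and Timp3 for DNase-treated ATEV against PBS alone were called. All 20 losses fell on these calls, so the 640 do not speak for their stability. With no library left out, Plau lost its call in 4 of 8 alternatives and Timp3 in 2 of 8. The count of members called was 1 for ATEV against PBS. It became 2 with no filter, the replicate block or DESeq2, 0 with protein-coding genes only, only the groups compared, GC correction or the replicate block with GC correction, and 0 to 0 without 1 library. For DNase-treated ATEV against PBS (1) it was 2 with no filter or DESeq2, 0 with protein-coding genes or GC correction, and 0 to 1 without 1 library. For ATEV against NTEV (0) it was 1 with no filter, the replicate block, the block with GC correction or DESeq2, and 0 to 1 without 1 library. For DNase-treated ATEV against NTEV (0) it was 1 with no filter or DESeq2. The cause was not tested.

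With the replicate block, Timp3 passed for ATEV against PBS (edgeR adjusted p = 0.0480) and for ATEV against NTEV (0.0499). Deviations of same-numbered libraries correlated at 0.485 to 0.552 among the EV groups and at -0.236 to -0.141 with PBS. The labels do not say what a number marks, so the block was kept as an alternative. Counts over all genes ran from 123 to 1637 for ATEV against PBS (788), 11 to 1764 for DNase-treated ATEV against PBS (458), 1 to 983 for NTEV against PBS (169), 56 to 477 for ATEV against NTEV (181), 26 to 420 for DNase-treated ATEV against ATEV (101) and 1 to 198 for DNase-treated ATEV against NTEV (8). Depth limits Mmp2 and Mmp9, and 2 libraries per group limit the rest.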
